A study of Mus musculus with 2 samples.

Results

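Heat shock proteins and their co-chaperones were followed through the cell classes of mouse femoral bone marrow stroma. The set holds 10 genes of the 28006 features counted: the heat-inducible Hspa1a, Hspa1b, Hspb1, Cryab, Dnajb1, Hsph1 and Hsp90aa1, and the constitutive Hspa8, Hsp90ab1 and Dnaja1. They were selected by symbol, and all 10 were present in the feature list and passed the filter on low counts in every comparison. The choice was made with measured values in view, since Hspb1 and Hspa1b were among the leading genes of a reticular cluster in an earlier clustering of the same cells. High levels of these genes in reticular cells are therefore a description and no independent evidence. In comparisons with reticular-like cells Hspb1 and Hspa1b are described without a test and left out of the counts of members called. The other members were tested and counted, but apart from Cryab their levels rose with Hspa1b over reticular-like cells. For Hspa1a with Hspa1b, Pearson's r was 0.67 in Mouse #1 and 0.72 in Mouse #2. Calls and p-values of members higher in reticular-like cells are thus not independent of the choice and are a description too.

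Single-cell RNA sequencing was performed on Cxcl12-GFP+ cells sorted from the femurs of 2 mice, with 1 library per mouse. Both mice (Mouse #1 and Mouse #2) were Cxcl12(GFP/+); Cxcl12-iCreER; R26R(tdTomato/+), received tamoxifen at postnatal day 21 and were analyzed at postnatal day 28. They form a single group without an untreated control, so every comparison is between classes of cells of the same animals. Bones were dissociated with enzymes before the sort in both mice and no undissociated sample was analysed here, so transcripts present in the bone and transcripts made during dissociation cannot be told apart. The recombinase was driven by a Cxcl12 transgene and the GFP allele occupied 1 of the Cxcl12 copies. One protocol field of the labels names tdTomato+ cells while the others name GFP+ cells, and the libraries were read as GFP+ sorts.

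Heat shock proteins are molecular chaperones that bind unfolded stretches of other proteins, and cells hold both constitutive forms and forms that are transcribed on stress. Proteotoxic stress releases the transcription factor HSF1, which binds heat shock elements, inverted repeats of the unit GAA, in front of the inducible genes. HSP70 proteins (Hspa genes) work in cycles driven by J-domain co-chaperones (Dnaj genes) and nucleotide exchange factors such as Hsph1, HSP90 proteins act later on signaling proteins, and small heat shock proteins (Hspb1, Cryab) hold unfolded proteins without using ATP. The same genes, together with immediate early genes, are known to rise in solid tissues digested by warm enzymes.

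The promoter sequences are shown because the members other than Cryab, constitutive ones included, were raised together over cells, as described further on. A link between the sequences and these levels was not tested. RefSeq promoter windows (GRCm38.p6, 250 bases before to 50 bases after each transcription start) were found for 6 of the 10 members, in 10 windows: Hspa1a, Hspa1b, Hspb1, Dnajb1, Hsph1 and Dnaja1. No window was found for Hspa8, Cryab, Hsp90aa1 and Hsp90ab1. A pair of heat shock units was searched as GAANNTTC or TTCNNGAA, each of which reads the same on both strands, and 3 units as GAANNTTCNNGAA or TTCNNGAANNTTC, where matches of the longer motif also contain the shorter one. The pair occurred in 15.1% of all 32851 promoter windows, and 3 units in 0.603%. The following lines give the matches that lie before the start with 10 bases on either side, 5′ to 3′ on the strand of the gene, with the matched letters in capitals.
Hspa1a (chr17:34972243-34972270, minus strand): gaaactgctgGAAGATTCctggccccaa
Hspa1b (chr17:34959325-34959352, minus strand): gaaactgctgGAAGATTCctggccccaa
Hspb1 (chr5:135887792-135887819, plus strand): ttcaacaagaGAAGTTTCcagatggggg
Hspb1 (chr5:135887812-135887839, plus strand): gatgggggcaGAACCTTCctggccccgc
Hsph1 (chr5:149636352-149636379, minus strand): ggtagaatctTTCTCGAAggctcgagaa
Dnaja1 (chr4:40722334-40722361, plus strand): aaagcctctaGAAAATTCtacgaggctc

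The stretch of Hspa1a and that of Hspa1b were the same, and their whole windows shared 296 of 300 bases. Their matches began 104 bases before the start. Hspb1 held a pair of matches, which began 117 and 97 bases before the start. Hsph1 had 1 pair before the start, and 3 units in a row within the 50 bases after it in both of its windows. Neither window of Dnajb1 held the letters searched, and in Dnaja1 they were found in 1 of 3 windows. A match is a description of the letters and was not tested as a binding site.

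Since UMIs were read from transcript ends, the last 500 bases of the longest coding transcript of each member were compared with all other mouse transcripts. Hspa1a and Hspa1b, neighboring genes on chromosome 17 (34969190 to 34972156 and 34956436 to 34959238, both on the minus strand of GRCm38), code for nearly the same protein, but none of the 451 overlapping stretches of 50 bases at the end of either was found in another gene. The same held for Cryab (chromosome 9, 50751325 to 50756636, plus strand), Dnajb1 (chromosome 8, 83608193 to 83612653, plus), Hsph1 (chromosome 5, 149614287 to 149636376, minus), Hsp90aa1 (chromosome 12, 110690605 to 110702728, minus) and Dnaja1 (chromosome 4, 40722150 to 40737149, plus). In Hspb1 (chromosome 5, 135887919 to 135889563, plus) 16.0% of the stretches also lay in 1 other gene, and in Hsp90ab1 (chromosome 17, 45567775 to 45573271, minus) 7.76%. In Hspa8 (chromosome 9, 40800984 to 40810087, plus) 81.8% lay in at least 1 of 11 other genes, so its counts are less certain than those of the others.

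The libraries held 54940400 and 88790688 UMIs (molecular tags that count a captured transcript once). Barcodes that held 1000 genes or more, with mitochondrial UMIs of 15% or less, gave 2750 cells of Mouse #1 and 4582 of Mouse #2, with 7 barcodes in both. Of 19 clusters, made without the members and the other chaperone and immediate early genes, 15 were named from markers. There were 1244 and 2424 reticular-like cells, 417 and 839 preosteoblast-like, 78 and 239 periosteal-like and 151 and 138 endothelial-like cells, and the hematopoietic cells were myeloid-like (347 and 307), lymphoid-like (234 and 238) and erythroid-like (111 and 134). The 8 reticular markers, each found in every class, summed to 17450 and 15060 CPM (counts scaled to 1000000 UMIs of the class) in reticular-like cells. Preosteoblast-like cells had 5081 and 3421 CPM of them and periosteal-like cells 4456 and 3330 CPM. In periosteal-like cells the preosteoblast markers summed to 13900 and 13930 CPM, above the 12260 and 8381 CPM of the periosteal markers. Col1a1 held 12640 and 11820 CPM of that preosteoblast sum. Barcodes with 1 to 100 UMIs served as the measure of free RNA. Replicate numbers stand for animals, and with 2 animals no permutation of mice can reach a p of 0.05, so tests rest on the spread that edgeR shares across genes.

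By the mean of both mice the inducible HSP70 genes were most abundant in endothelial-like cells, with reticular-like cells next, while in Mouse #2 reticular-like cells were higher. Hspa1a had 733 CPM in Mouse #1 and 396 CPM in Mouse #2 in endothelial-like cells, 191 and 437 CPM in reticular-like cells, 102 and 236 CPM in preosteoblast-like cells and 169 and 151 CPM in periosteal-like cells. The levels of Hspa1b were 464 and 227 CPM for endothelial-like, 240 and 373 CPM for reticular-like, 76.1 and 223 CPM for preosteoblast-like and 215 and 170 CPM for periosteal-like cells. For both genes the mice of neighboring classes in this order overlapped between endothelial-like and reticular-like cells. Lymphoid-like cells had the lowest means, from 52.3 and 72.2 CPM of Hspa1a and 81.1 and 86.5 CPM of Hspa1b. Free RNA held 229 and 300 CPM of Hspa1a and 206 and 241 CPM of Hspa1b. For Hspa1a this was above preosteoblast-like and periosteal-like cells in both mice, and above reticular-like cells in Mouse #1.

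The order of the mice turned with the class. Hspa1a was higher in Mouse #2 than in Mouse #1 in reticular-like and preosteoblast-like cells, and higher in Mouse #1 in endothelial-like cells. The log2 ratio of Mouse #1 to Mouse #2 was -1.19 in reticular-like and 0.89 in endothelial-like cells. In the larger endothelial cluster, led by Gja4, Cav1 and Sema3g, Hspa1a had 873 and 469 CPM, and in the smaller one, led by Gpm6a, Selp and Lipg, 280 and 138 CPM, so the order was the same in both. Whether the mice differ by class was not tested.

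**Figure D1:**
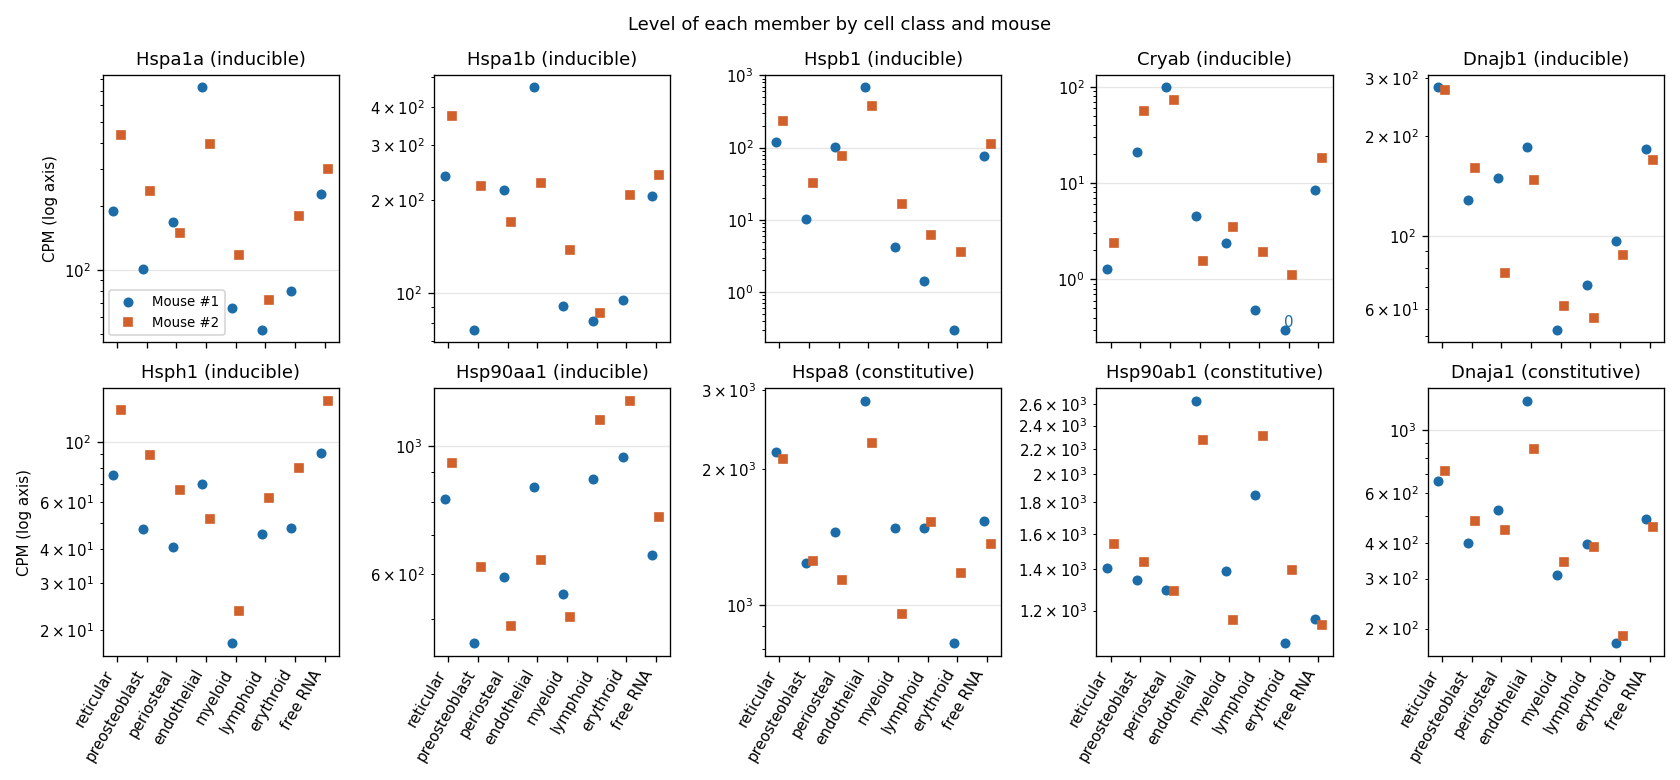
CPM (log axis, scaled for each gene) of the 10 members in 7 classes of cells and in free RNA, with circles for Mouse #1 and squares for Mouse #2, and the single value of 0 drawn at the foot of its panel. By the mean of both mice Hspa1a, Hspa1b and Hspb1 stand highest in endothelial-like cells, although in Mouse #2 Hspa1a and Hspa1b are higher in reticular-like cells, while Cryab is highest in periosteal-like and Dnajb1 in reticular-like cells.

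The small heat shock proteins went separate ways. Hspb1 (HSP25 in the mouse) reached 692 and 375 CPM in endothelial-like cells, followed by reticular-like cells at 119 and 232 CPM and periosteal-like cells at 102 and 77.5 CPM, and these classes did not overlap. It had 10.4 and 32.7 CPM in preosteoblast-like cells and 4.23 and 16.5 CPM in myeloid-like cells. Cryab, the lens protein alpha B-crystallin, was highest in periosteal-like cells at 99.4 and 72.0 CPM, followed by preosteoblast-like cells at 21.02 and 56.51 CPM. Within the preosteoblast-like class a cluster of 14 and 61 cells had Bglap, Bglap2 and Ifitm5, genes of mature osteoblasts, among its leading genes. This cluster held 140 and 197 CPM of Cryab, against 12.3 and 29.7 CPM in the larger cluster led by Wif1. In the same small cluster Hspb1 had 0 and 23.3 CPM. Reticular-like cells had 1.29 and 2.39 CPM of Cryab, below the 8.54 and 18.1 CPM of free RNA.

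The co-chaperones differed by type. Dnajb1, the stress-inducible J-domain partner of HSP70, was most abundant in reticular-like cells, at 282 and 276 CPM, with 186 and 148 CPM in endothelial-like, 129 and 160 CPM in preosteoblast-like and 52.1 and 61.4 CPM in myeloid-like cells. Its values in reticular-like cells lay above those of every other class in both mice. Dnaja1, the constitutive J-domain partner, was instead highest in endothelial-like cells at 1274 and 857 CPM, above 663 and 716 CPM in reticular-like cells, and lowest in erythroid-like cells at 177 and 188 CPM. Hsph1 (HSP110), the exchange factor, had 75.6 and 132 CPM in reticular-like cells and overlapped with preosteoblast-like cells (47.7 and 89.4 CPM). It was lowest in myeloid-like cells, at 17.9 and 23.5 CPM. Free RNA held 91.1 and 143 CPM of Hsph1, above every named class in both mice.

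The HSP90 pair also split. Hsp90aa1, the inducible form, was highest in erythroid-like cells (956 and 1199 CPM) and lymphoid-like cells (876 and 1108 CPM), and reticular-like cells (810 and 936 CPM) overlapped with the latter. Hsp90ab1, the constitutive form, was highest in endothelial-like cells (2636 and 2276 CPM) and overlapped there with lymphoid-like cells (1853 and 2312 CPM). Reticular-like cells (1410 and 1541 CPM), preosteoblast-like cells (1346 and 1442 CPM) and periosteal-like cells (1296 and 1290 CPM) lay in a narrow range. Hspa8, the constitutive HSP70 (HSC70), had 2843 and 2288 CPM in endothelial-like cells and 2190 and 2113 CPM in reticular-like cells, with no other class above 1531 CPM.

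The first comparison asked how reticular cells differ from cells of the osteoblast lineage. Against preosteoblast-like cells, 4 of the other 8 members were higher in reticular-like cells and 1 was lower (edgeR quasi-likelihood test on UMIs summed per mouse and class, adjusted p under 0.05, n = 2 mice per class). The background was 19.6% of 13314 genes called, 10.2% higher and 9.35% lower. Cryab was lower, with a log2 fold change of -4.34 ± 0.51 (SE, edgeR adjusted p = 0.000168). Dnajb1 was higher by 0.96 ± 0.26 (edgeR adjusted p = 0.0235), Hspa8 by 0.81 ± 0.21 (0.0186), Hsp90aa1 by 0.72 ± 0.22 (0.0393) and Dnaja1 by 0.67 ± 0.20 (0.0385). Thus members of both kinds were among those called, and each of the 5 moved the same way in both mice. The 4 higher ones rose with Hspa1b over reticular-like cells, so their calls are a description. The same holds for members called higher in reticular-like cells in the comparisons that follow. Hspa1a had a log2 fold change of 0.90 ± 0.50 (edgeR adjusted p = 0.253) and was not called, nor were Hsph1 (0.60 ± 0.35, edgeR adjusted p = 0.275) and Hsp90ab1 (0.10 ± 0.17, edgeR adjusted p = 0.758). Described without a test, Hspb1 had a log2 fold change of 2.99 ± 0.64 and Hspa1b of 1.03 ± 0.49. With stricter limits on cells (2000 genes or more, mitochondrial UMIs of 10% or less) or with finer clustering (resolution 1.0), Cryab alone of the 8 was called, and Dnajb1 had 0.75 and 0.77 (edgeR adjusted p = 0.064 and 0.0655). In both settings a cluster with Sox9, Rrad and Egr1 among its top 10 genes was left unnamed, as these genes included a marker of another class. It came mostly from Mouse #1, with 333 and 66 cells under the stricter limits and 328 and 87 in the finer clustering, where a shallow cluster of 138 and 312 cells was left unnamed too. With the unnamed reticular clusters put back (both of them in the finer clustering), an alternative chosen after seeing the data, 4 (without Dnaja1) and 5 of the 8 were called.

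Against periosteal-like cells, 3 of the 8 members were higher in reticular-like cells and Cryab was lower, beside 15.6% of genes called (7.89% higher, 7.69% lower). The log2 fold change of Cryab was -5.42 ± 0.53 (edgeR adjusted p = 5.14e-05), that of Dnajb1 was 1.34 ± 0.28 (0.00617), that of Hspa8 0.75 ± 0.21 (0.0316) and that of Hsp90aa1 0.71 ± 0.22 (0.0494). With the mouse as a block in the fit, Hsp90aa1 was no longer called (edgeR adjusted p = 0.0512) and Hsph1 was (0.95, edgeR adjusted p = 0.0239). Under the stricter limits, the finer clustering or relative log expression scaling, Cryab and Dnajb1 alone were called, and Hsp90aa1 was not called by DESeq2 (adjusted p = 0.0896). The periosteal-like class was 1 cluster led by Apod, Itgbl1 and Has1.

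Against endothelial-like cells the picture differed by gene. Dnajb1 was higher in reticular-like cells (0.86 ± 0.27, edgeR adjusted p = 0.0218) and Hsp90ab1 was lower (-0.61 ± 0.17, edgeR adjusted p = 0.0132), with 42.3% of genes called (22.0% higher, 20.4% lower). Dnajb1 was no longer called by DESeq2 (0.71, adjusted p = 0.0606), nor by edgeR with relative log expression scaling (adjusted p = 0.0567), the stricter limits (0.0705) or the finer clustering (0.0597), while Hsp90ab1 kept its call in these. Hspb1 had a log2 fold change of -1.47 ± 0.59 and its CPM was below the endothelial-like level in each mouse. With the mouse as a block Hsph1 was called as well (0.81, edgeR adjusted p = 0.022). For Hspa1a the log2 ratio of CPM was -1.94 in Mouse #1 and 0.14 in Mouse #2, and for Hspa1b it was -0.95 and 0.72, so that the sign turned with the animal. Neutrophil RNA was present in the endothelial-like class. The 8 myeloid markers summed to 5006 and 4586 CPM there against 238 and 212 CPM in reticular-like cells, with Csf1r at 0 in both mice and S100a8 at 2140 and 1964 CPM. The myeloid-like cells themselves had 4.23 and 16.5 CPM of Hspb1, far below the endothelial-like level.

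Against hematopoietic cells 5 of the 8 members were higher in reticular-like cells and 1 was lower, with 70.6% of genes called (40.3% higher, 30.3% lower). Dnajb1 had a log2 fold change of 1.65 ± 0.20 (edgeR adjusted p = 1.23e-05), followed by Dnaja1 at 0.92 ± 0.16 (0.000221), Hspa1a at 1.46 ± 0.39 (0.00472), Hsph1 at 0.99 ± 0.28 (0.00744) and Hspa8 at 0.47 ± 0.17 (0.0239), the last not called by DESeq2 (0.33, adjusted p = 0.0803) or with relative log expression scaling, the stricter limits or the finer clustering. Without a test, Hspb1 had 4.99 ± 0.55 and Hspa1b 1.10 ± 0.38. Hsp90ab1 had a log2 fold change of -0.36 ± 0.14 (edgeR adjusted p = 0.0434, and 0.0518 with the mouse as a block) in the fit, which weights myeloid-like, lymphoid-like and erythroid-like cells equally. By CPM its direction depended on that weighting. Reticular-like cells had 1410 and 1541 CPM, against 1440 and 1620 CPM in the equal mean and 1382 and 1436 CPM over pooled hematopoietic cells. The log2 ratio of CPM to the equal mean was -0.03 and -0.07, nearer to 0 than in the fit, which also scales the classes. Pooled cells were not fitted, so the effect of weighting in the fit is not known. In this comparison the median of all genes was 0.36 by CPM and 0.14 in the fit. The share of members called lay close to that of all genes.

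**Figure D2:**
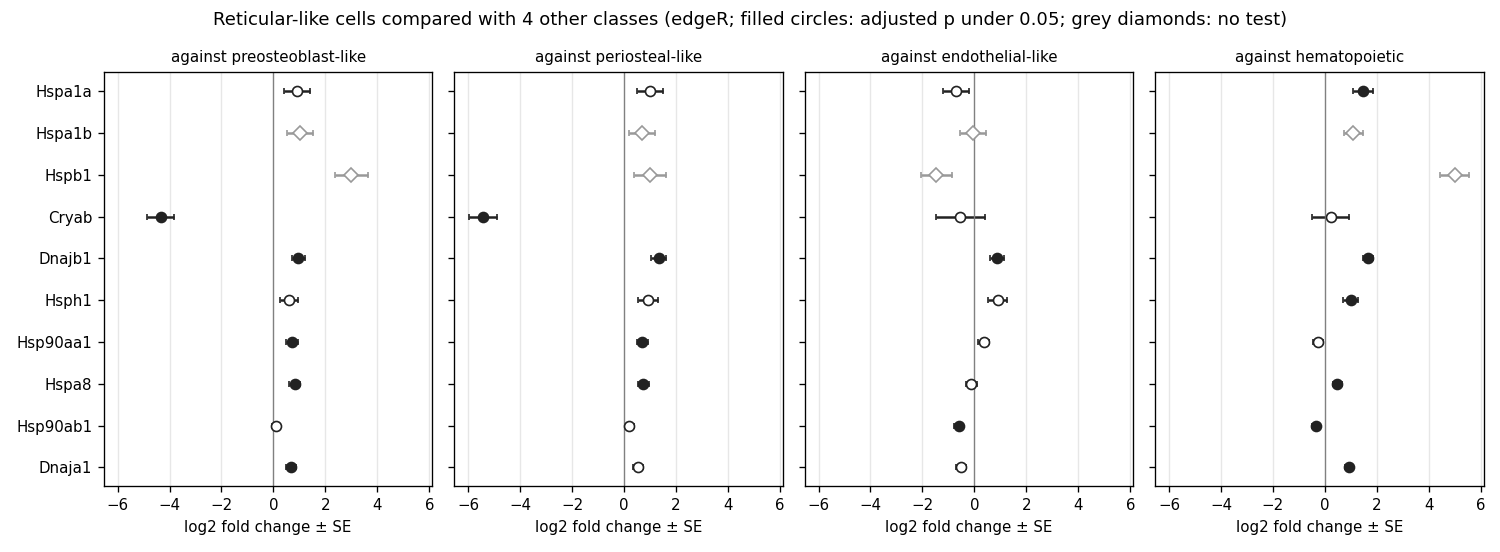
Log2 fold change of each member in reticular-like cells against 4 other classes (edgeR, 2 mice per class, bars are SE), where values right of the line are higher in reticular-like cells filled circles are called, and Hspb1 and Hspa1b are drawn as grey diamonds with no test. Cryab lies near -4.34 and -5.42 in the first and second panel, while Dnajb1 lies right of the line in all 4.

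Preosteoblast-like and endothelial-like cells were compared to see the members outside the reticular class. Here 5 members were lower in preosteoblast-like cells and 1 was higher, with 42.6% of genes called (21.8% higher, 20.8% lower). The log2 fold change was -4.46 ± 0.68 for Hspb1 (edgeR adjusted p = 0.000251), -1.62 ± 0.51 for Hspa1a (0.0234), -1.17 ± 0.21 for Dnaja1 (0.000692), -0.94 ± 0.21 for Hspa8 (0.00349) and -0.72 ± 0.17 for Hsp90ab1 (0.00578). Cryab was higher by 3.79 ± 0.70 (edgeR adjusted p = 0.000991). All 3 constitutive members were thus higher in endothelial-like cells. With the mouse as a block Hspa1b was called too (-1.24, edgeR adjusted p = 0.045). The log2 ratio for Hspa1b was -2.61 in Mouse #1 and -0.03 in Mouse #2.

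Other chaperones were described from lists, beside a median log2 fold change of 0.00 over all genes in reticular-like against preosteoblast-like cells. Of 28 other cytosolic chaperones and co-chaperones, 3 were higher and 2 lower, with a median of 0.04. The share called was close to the 19.6% of all genes (10.2% higher, 9.35% lower). Fkbp5, an HSP90 co-chaperone, was higher (1.29 ± 0.20, edgeR adjusted p = 0.00102), as were the J-domain protein Dnajb4 (0.61 ± 0.18, 0.034) and the small heat shock protein Hspb8 (1.75 ± 0.56, 0.0493), the latter at 1.59 and 1.13 CPM and not with the mouse as a block (adjusted p = 0.0582). The HSP110 relative Hspa4l (-1.30 ± 0.25, edgeR adjusted p = 0.00318) and the exchange factor Bag1 (-0.62 ± 0.19, 0.0388) were lower. None of the 3 heat shock factor genes and none of the 6 mitochondrial chaperones were called by edgeR, where 2 and 0 had an unadjusted p under 0.05, and DESeq2 called 0 and 0 of them.

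The endoplasmic reticulum list rose in part. Of 20 genes 5 were higher and none lower, with a median of 0.31, among them Sdf2l1 (1.49 ± 0.15, edgeR adjusted p = 6.09e-05), the HSP70 of that compartment Hspa5 (0.90 ± 0.15, 0.00158) and the stress factor Ddit3 (0.81 ± 0.25, 0.0434). Of 17 immediate early genes, which are induced fast by many stimuli and by dissociation, 10 were higher and none lower, with a median of 1.16. They included Ier5 (1.51 ± 0.20, edgeR adjusted p = 0.000313), Jun (1.41 ± 0.37, 0.0204) and Nr4a1 (1.39 ± 0.36, 0.0179). Summed, they reached 17460 and 13910 CPM in reticular-like cells, 6796 and 7633 CPM in preosteoblast-like cells and 2873 and 2614 CPM in hematopoietic cells. In this comparison the immediate early genes thus moved the same way as the members called higher, and their part in the members' levels was not tested. Against periosteal-like cells 2 of the 17 were higher and none lower (median 0.33), beside 7.89% and 7.69% of all genes. Against endothelial-like cells 4 were higher and 3 lower (median 0.45), beside 22.0% and 20.4% of all genes, while the median of the 10 members was -0.32. Against hematopoietic cells all 17 were higher in reticular-like cells, while 20 of the 28 cytosolic chaperones and all 6 mitochondrial chaperones were lower. There 40.3% of all genes were called higher and 30.3% lower.

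Inducible members were then set against constitutive members within each class. The log2 ratio of their summed UMIs was -1.31 in Mouse #1 and -0.87 in Mouse #2 in reticular-like cells, a mean of -1.09 ± 0.31 (SD, n = 2). Preosteoblast-like cells had ratios of -1.83 and -1.17, periosteal-like cells of -1.26 and -1.39 and endothelial-like cells of -1.17 and -1.57. The ranges of these 4 classes overlapped. Within each mouse the ratio of preosteoblast-like cells was the lower one beside that of reticular-like cells, while against periosteal-like and endothelial-like cells its sign turned with the animal. Myeloid-like cells had -2.02 and -1.50 and lymphoid-like cells -1.73 and -1.60. Erythroid-like cells stood highest at -0.69 and -0.65, where Hsp90aa1 made up most of the inducible sum (956 of 1275 CPM in Mouse #1 and 1199 of 1760 CPM in Mouse #2). UMIs count transcripts and were not divided by gene length.

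In reticular-like, preosteoblast-like, periosteal-like and endothelial-like cells the inducible sum was spread more widely over cells than the constitutive sum. In reticular-like cells the inducible sum had a median of 6.60 and 6.83 UMIs per 10000 of a cell, with a 90th percentile 28.2 and 38.8 times the 10th. The constitutive sum had a median of 34.8 and 34.1 with a factor of 4.58 and 4.45 between the same percentiles. Periosteal-like cells had factors of 9.44 and 13.0 for inducible against 2.90 and 3.00 for constitutive members, and endothelial-like cells 26.3 and 12.8 against 4.11 and 2.78. Erythroid-like cells went the other way, with 46.5 and 57.9 against 89.9 and 118. Low counts widen such a factor, and by median the inducible sum was the lower of the pair in every class but the erythroid-like. There the constitutive median was the lower, at 3.22 and 5.58 against 5.64 and 6.09 UMIs per 10000. The 10% of reticular-like cells with the most inducible UMIs held 50.8% and 52.7% of them, and 54.2% and 54.3% once each cell had been thinned to 2000 UMIs. In preosteoblast-like cells this share was 44.2% and 46.7% before and 55.0% and 49.1% after thinning, so at equal depth the order of these classes turned with the animal.

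**Figure D3:**
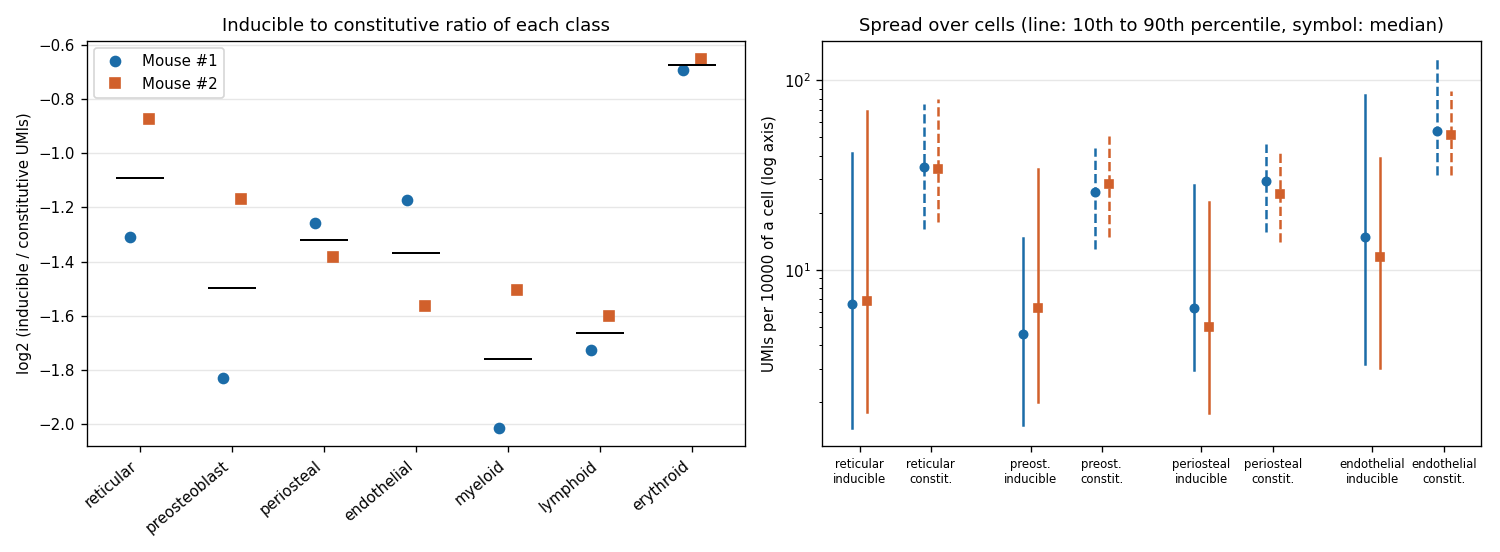
Left, log2 ratio of summed inducible to constitutive UMIs by class, with circles for Mouse #1, squares for Mouse #2 and bars for the mean. Right, inducible (solid) and constitutive (dashed) UMIs per 10000 of a cell on a log axis, with lines from the 10th to the 90th percentile. The mice overlap between reticular-like, preosteoblast-like, periosteal-like and endothelial-like cells on the left, and in the 4 classes drawn on the right the solid lines are longer than the dashed lines.

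Detection of the inducible HSP70 pair was compared at equal depth. After thinning to 2000 UMIs, a UMI of Hspa1a or Hspa1b was found in 19.7% (17.6 to 22.0%) and 27.4% (25.7 to 29.3%) of reticular-like cells (Mouse #1, then Mouse #2), with 95% Wilson intervals in parentheses. Hematopoietic cells gave 6.36% (4.77 to 8.43%) and 10.2% (8.13 to 12.7%), at median depths of 12599.5 and 10655 UMIs against 12380 and 11548.5 UMIs in reticular-like cells. The reticular share was above the hematopoietic share in both mice. This is a description, since Hspa1b was chosen with its reticular values in view. Endothelial-like cells had 48.3% (40.5 to 56.3%) and 27.5% (20.8 to 35.5%), and preosteoblast-like cells 11.5% (8.79 to 14.9%) and 23.5% (20.8 to 26.5%). Without thinning, 37.7% and 43.1% of reticular-like cells had such a UMI. Thinning left out 3 and 4 reticular-like cells, 0 and 2 hematopoietic cells, 0 and 1 preosteoblast-like and no endothelial-like cells, and the intervals cover counting error only.

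At this depth Hspb1 had a UMI in 8.62% and 12.8% of reticular-like cells, 54.3% and 42.0% of endothelial-like cells and 0.145% and 1.03% of hematopoietic cells. Cryab had one in 0.161% and 0.413% of reticular-like cells, close to 0.145% and 0.295% in hematopoietic cells, and is read as background there. It was found in 19.2% and 10.1% of periosteal-like cells. In free RNA Hspb1 had 76.7 and 113 CPM beside 229 and 300 CPM of Hspa1a, while hematopoietic cells had 2.78 and 10.2 CPM of Hspb1 beside 67.6 and 132 CPM of Hspa1a. The constitutive Hspa8 was found in 90.7% and 92.0% of reticular-like cells and Hsp90ab1 in 88.2% and 89.5%.

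Within the reticular class the members varied by cluster. A cluster of 530 and 1124 cells led by genes that included Bmp4 and Snai2 held 341 and 817 CPM of Hspa1a, against 93.8 and 115 CPM in a cluster of 672 and 1253 cells led by Ccl2, Vasn and Tnfsf11. The corresponding levels of Hspa1b were 453 and 720 CPM against 101 and 78.0 CPM, and those of Hspb1 were 188 and 400 CPM against 75.5 and 90.3 CPM. Hspa1a, Hspa1b and Hspb1 were thus higher in the Bmp4 cluster in both mice. None of them was used for clustering here, but Hspb1 and Hspa1b were chosen as leading genes of a reticular cluster in these cells. Their difference between reticular clusters is therefore no independent evidence. For Dnajb1 the order turned with the animal, with 253 and 390 CPM in the Bmp4 cluster and 305 and 181 CPM in the Ccl2 cluster. Hspa8 had 1725 and 2186 CPM against 2508 and 2062 CPM, which overlapped. The immediate early genes summed to 12910 and 15240 CPM in the Bmp4 cluster and 20720 and 12900 CPM in the Ccl2 cluster, so that in Mouse #1 they did not follow Hspa1a.

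Of the 10% of reticular-like cells with the most inducible UMIs, 61.3% in Mouse #1 and 88.0% in Mouse #2 lay in the Bmp4 cluster, which made up 42.6% and 46.4% of the class. The median inducible level of that cluster was 4.83 and 15.8 UMIs per 10000, against 8.60 and 5.50 in the Ccl2 cluster, so the typical cell of the Bmp4 cluster held less in Mouse #1 and more in Mouse #2. The 90th percentile was 63.3 and 110 in the Bmp4 cluster against 36.7 and 21.4. High levels were therefore those of part of its cells. The third cluster, of 42 and 47 cells led by Cxcl9, Ephx2 and Adipoq, gave none of these cells and had 44.7 and 16.7 CPM of Hspa1a at a median of 3383 and 3428 UMIs per cell. As the clusters were drawn from the same cells, these values are a description with no test.

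**Figure D4:**
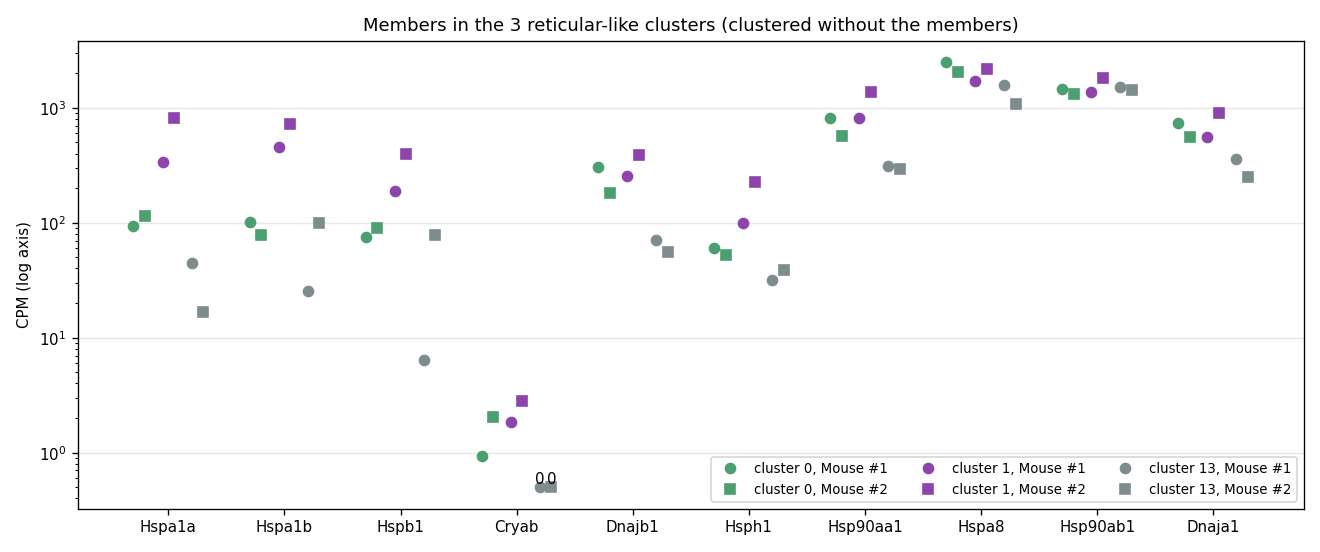
CPM (log axis) of each member in the 3 reticular-like clusters, with a color for each cluster, circles for Mouse #1 and squares for Mouse #2, and the values of 0 for Cryab drawn at the foot. Hspa1a, Hspa1b and Hspb1 of cluster 1 (the Bmp4 cluster, purple) stand above those of cluster 0 (the Ccl2 cluster, green) in both mice, while Hspa8 and Hsp90ab1 of these clusters lie close together.

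The members rose and fell together over single reticular-like cells, apart from Cryab. Over 1244 and 2424 cells Pearson's r of log levels was 0.67 and 0.72 for Hspa1a with Hspa1b, which had the largest r of any pair. Hspa1a with Hsp90aa1 gave 0.40 and 0.52, and Hspa1a with Dnajb1 0.32 and 0.37. Constitutive members took part, as Hspa8 with Dnaja1 gave 0.52 and 0.43 and the inducible sum with the constitutive sum 0.66 in both mice. Hspb1 was tied less closely, with 0.33 and 0.37 to Hspa1a and 0.19 and 0.22 to Dnajb1. Cryab had values between -0.03 and 0.03 with every other member. These cells share a library and a wide range of depth, and the inducible sum had r of 0.13 and 0.11 with the log2 UMIs of the cell.

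**Figure D5:**
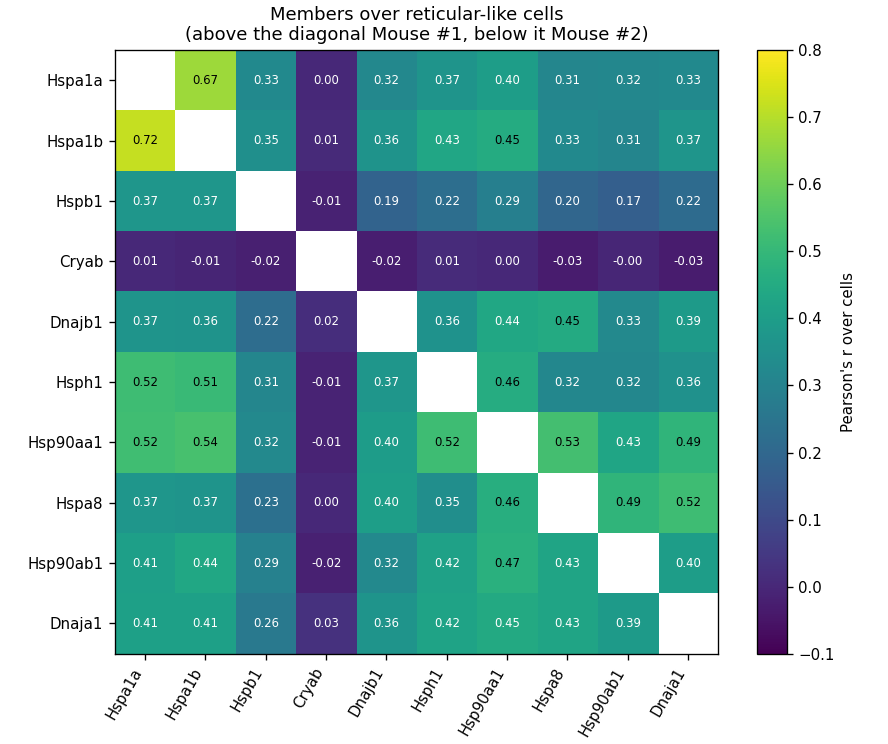
Pearson's r between members over reticular-like cells, with Mouse #1 above the diagonal (1244 cells), Mouse #2 below it (2424 cells) and color for r. The square of Hspa1a with Hspa1b is brightest, at 0.67 and 0.72, and the row and column of Cryab are dark.

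The genes most like the inducible sum were ranked among 8182 genes by the lower r of both mice. Among the 10 nearest were Jun (0.62 and 0.63), Egr1 (0.52 and 0.53), Fos (0.49 and 0.58), Cyr61 (0.47 and 0.47), Btg2, Dusp1, Zfp36, Hspe1 (0.37 and 0.53) and Junb. Of the 10, 7 belong to the immediate early list, and Hspe1 is the mitochondrial HSP10. Its partner Hspd1 (HSP60) followed among the chaperones with 0.31 and 0.43. The summed immediate early genes had r of 0.55 and 0.51 with the inducible sum in reticular-like cells and 0.57 and 0.56 in preosteoblast-like cells.

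Reticular-like cells were last divided by tdTomato, the mark left by Cxcl12-iCreER, a division that the choice of members did not use. Cells above the 99th percentile of hematopoietic cells were called positive, which gave 492 and 969 tdTomato-positive and 752 and 1455 tdTomato-negative cells. This threshold was 8.91 tdTomato UMIs per 10000 in Mouse #1 and 14.75 in Mouse #2. Cells called negative could thus hold tdTomato UMIs below it, and marked cells among them are not excluded. None of the 10 members was called by edgeR, with 0.0% of 12185 genes called, and none had an unadjusted p under 0.05. The division itself set tdTomato at 2113 (positive) against 58.5 CPM (negative) in Mouse #1 and 2600 against 243.5 CPM in Mouse #2. As this fit called no gene even so, it cannot tell whether the members differ. Log2 fold changes of the members lay between -0.36 and 0.14. With the mouse as a block 3.07% of genes were called and again no member, and DESeq2 called 9 genes and no member. The mice went opposite ways for the inducible sum, which stood at 2002 CPM (positive) against 1530 CPM (negative) in Mouse #1 and at 2025 against 2629 CPM in Mouse #2. The constitutive sum lay between 4169 and 4444 CPM in all 4 groups of cells. With errors of up to 0.51 on the log2 scale, modest differences of the inducible members were not detectable here. The fit without the block called no gene, so larger differences could be missed too.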

How the data were processed

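Cxcl12-GFP+ cells of 2 mice were profiled by 3' droplet single-cell RNA sequencing. The authors deposited raw UMI counts per feature and barcode, made per the file headers with Cell Ranger 3.0.0 against an mm10 genome with 8 reporter sequences added (the annotation release is not given in the sources used here). The processing notes also name Seurat, whose output was not used here. No strand setting is given in these sources. Counts in the deposited files cover all barcodes, so cells were chosen here, as barcodes of 1000 genes or more whose mitochondrial UMIs were 15% or less.

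Levels were scaled to 10000 UMIs with a pseudocount of 1, and clusters were drawn with Leiden (leidenalg 0.10.2, resolution 0.5, 2000 genes, 30 principal components, 15 neighbors). A cluster was named "X-like" if at least 3 markers of a class were raised 1.5-fold in 10% of its cells or more. It was left unnamed if its top 10 genes held as many markers of another class, or if it was cycling. A shallow cluster was left unnamed only if no marker of its own class was among these 10 genes. Counts were summed per mouse and class (at least 20 cells) and tested with edgeR 4.0.16 in R 4.3.3 (TMM scaling, filterByExpr, quasi-likelihood test, all classes in a single fit, Benjamini-Hochberg adjustment over all genes tested, threshold 0.05). The test was checked on simulated data. Genes were named by rule: all members, up to 3 called genes at either end of each list, the 10 other genes closest to the inducible sum over cells and the 5 closest of the immediate early list. Some genes that this rule names are not reported here. The members and lists were chosen with earlier results of these data known.

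Both classes of a comparison came from the same animals, and deviations of the same mouse correlated across genes (r = 0.2746 for reticular-like with preosteoblast-like, 0.5125 for tdTomato-positive with tdTomato-negative cells), so a fit with the mouse as a block was an alternative. Other alternatives were DESeq2 1.42.0, another scaling, no filter, stricter limits on cells, finer clustering, clustering with the members, other definitions of the summary values, and leaving out each mouse. Scrublet (scanpy 1.11.5) called 2 and 3 cells (0.0727% and 0.0655%) and was judged not to have worked, so doublets were kept, and the 60 and 168 cells of highest score were left out as an alternative. Shares were compared after thinning to 2000 UMIs. Depth was 54940400 and 88790688 UMIs, and intervals cover counting error only.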

Additional observations from a re-analysis of the deposited data

How the results depend on the processing

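Over 50 comparisons of a single member between classes and 650 alternative values, 575 kept their direction and side of the threshold, 34 were no longer called, 28 became called and 13 changed sign. This tally includes Hspb1 and Hspa1b, whose reticular values were part of the choice, and is a description. The following counts are over the other 8 members, beside the shares of all genes given with the results. Calls of these members as higher in reticular-like cells are not independent of the choice and are a description too. Against preosteoblast-like cells the number called went from 5 to 1 with stricter limits on cells, to 1 in the finer clustering and to 7 without a filter. Against periosteal-like cells it went from 4 to 2 with stricter limits, finer clustering or relative log expression scaling, and to 6 without a filter. Against endothelial-like cells it went from 2 to 3 with the mouse as a replicate block and to 4 without a filter. It was 3 there with only the compared classes in the fit, and 3 with stricter limits once the unnamed reticular cluster was put back. DESeq2 gave 2 there as well, but Hsp90ab1 and Dnaja1 in place of Dnajb1. The reticular-like class fell from 1244 and 2424 cells to 794 and 2191 under the stricter limits and to 861 and 2190 in the finer clustering, and putting the unnamed clusters back gave 1127 and 2257, and 1327 and 2589. Apart from Hspb1 against endothelial-like cells, which is described without a test, the mouse as a block changed no member's call beyond those given with the results.

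Relative log expression scaling moved the median of all genes by -0.15 (log2) against periosteal-like and endothelial-like cells and by -0.14 against hematopoietic cells. The ratio of inducible to constitutive UMIs went from -1.09 to -1.79 with 4 strict inducible against 2 constitutive members, and was -0.873 to -1.31 with a single mouse. The share of inducible UMIs in the highest 10% of cells went from 51.7% to 56.0% with stricter limits, 55.6% in the finer clustering and 54.2% after thinning, was 65.3% and 64.6% for the 4 strict inducible members, and was 50.8% to 52.7% with a single mouse. The share of cells with an Hspa1a or Hspa1b UMI was 19.7% to 27.4% with a single mouse, 14.5% and 22.5% after thinning to 1000 UMIs, and 17.9% in Mouse #1 with stricter limits.

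The 13 changes of sign were all in comparisons that had not been called. Hsp90ab1 against preosteoblast-like cells had -0.01 with stricter limits. Against endothelial-like cells Hspa1b had 0.04 in the finer clustering, 0.07 without the highest Scrublet scores, 0.02 without a filter, and -0.95 to 0.72 with a single mouse. There Cryab had 0.93 without the highest Scrublet scores and -1.84 to 0.63 with a single mouse, where Hspa1a had -1.94 to 0.14 and Hsp90aa1 -0.07 to 0.56. Hsp90aa1 against hematopoietic cells had -0.00 and 0.03 with a single mouse. In preosteoblast-like against endothelial-like cells Dnajb1 had 0.05 without the highest Scrublet scores and -0.53 to 0.12 with a single mouse, and Hsph1 -0.56 to 0.79. With a single mouse no spread is left, so such values have no test. The cause of these changes was not tested.

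With 2 mice per class and errors of up to 0.94 on the log2 scale, small differences were not detectable. Cell classes were rebuilt from markers, the mice share dissociation and sort, and no undissociated or uninduced tissue was analysed here.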

Other observations

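Cells outside the named classes also held the members. An unnamed cluster of 75 and 146 cells, led by Mir143hg, had Hsph1 among its 10 leading genes, at 570 and 894 CPM, against 75.6 and 132 CPM in reticular-like cells. Its cells were shallow, with a median of 3189 and 2992.5 UMIs and 9.21% and 8.62% mitochondrial UMIs. Hsp90aa1 stood at 570 and 1742 CPM there and Hspa8, below its reticular-like level, at 586 and 983 CPM. An unnamed cluster of 66 and 86 cells led by Acta2, Fam64a and Tpm2 had 28.3 and 218 CPM of Hspa1a, beside summed immediate early genes of 3893 and 6363 CPM. A cluster of 21 cells in each mouse led by C1qc, C1qa and Fcna, genes of macrophages, had 231 and 130 CPM of Hspa1a and 86.5 and 74.4 CPM of Dnajb1.

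The endoplasmic reticulum and cytosolic lists were also counted in other comparisons. Against endothelial-like cells 11 of 20 endoplasmic reticulum genes were higher in reticular-like cells and 1 lower (edgeR, median log2 fold change 0.79), while 3 of 28 cytosolic chaperones were higher and 12 lower (median -0.30), beside 22.0% of all genes higher and 20.4% lower. Against hematopoietic cells 16 of the 20 were higher and none lower (median 1.18), beside 40.3% and 30.3% of all genes. Against periosteal-like cells 6 were higher and none lower (median 0.18), beside 7.89% and 7.69%. These comparisons share the reticular-like cells, and their lists were not tested as sets.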
